A study of Homo sapiens with 6 samples.

Results

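Aldo-keto reductases (AKRs) were followed in HT29 cells, a line of human colon adenocarcinoma, through the expression of AKR1A1, AKR1B1, AKR1B10, AKR1C1, AKR1C2, AKR1C3, AKR1C4, AKR7A2 and AKR7A3. These 9 genes were taken by name, and every probe set annotated to one of them alone was used. The platform annotation gave 7 of the 9 at least 1 probe set of their own, 15 probe sets in all, out of 54613 probe sets and 19775 genes on the array. AKR1A1 and AKR1B1 were not analysed here. A further probe set, annotated to both AKR1C1 and AKR1C2, was kept apart and counted with neither gene.

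RNA of 3 samples of HT29 cells sensitive to methotrexate (MTX), an antifolate drug, and of 3 samples of HT29 cells that withstand 10 μM MTX was profiled with Affymetrix HG U133 PLUS 2.0 arrays, 1 for each sample. Resistance was obtained by exposing the cells to MTX in steps of rising concentration. Sensitive cells grew in Ham's F12 with fetal bovine serum, whereas resistant cells grew in a medium lacking glycine, hypoxanthine and thymidine with dialyzed serum, so that medium and resistance cannot be told apart. No source used here says that the 3 samples of a group came from separate cultures, and p-values therefore measure the spread between these 6 samples alone, and part of it may be technical.

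AKRs are NADPH-dependent enzymes that reduce the carbonyl groups of aldehydes and ketones to alcohols. The AKR1C enzymes act on steroids, prostaglandins and carbonyl compounds made by lipid peroxidation, AKR1B10 on retinaldehyde and other aldehydes, and the AKR7A enzymes on dialdehydes such as that of aflatoxin. Several AKR genes are known targets of the transcription factor NRF2, which binds antioxidant response elements when cells are exposed to oxidants or electrophiles. AKR1B10 is known from normal gut epithelium and AKR1C4 mainly from liver.

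The deposited signals were divided by the median of their array, and the quotient, the scaled signal, is 1 at the median of the array. Array medians lay between 14.2 and 15.4 in sensitive cells and between 13.3 and 16.9 in resistant cells. The 3' to 5' ratio of ACTB, a sign of RNA quality, ran from 1.12 to 1.17 in sensitive cells and from 1.17 to 1.30 in resistant cells, and its part in the results was not tested. That of GAPDH lay between 0.980 and 1.04 on all arrays. Of 11 markers of colon epithelium 7 had a mean scaled signal of at least 5, with a summed scaled signal of 2057 to 2270 in sensitive and 1597 to 1796 in resistant cells. Of the 8 that were tested 5 passed as lower in resistant cells and CDH17, an intestinal cadherin, as higher (log2 fold change 1.20, SE 0.43, limma adjusted p = 0.027), while CDX1, CDX2 and GPA33 were too dim to be tested. No marker of leukocytes, endothelium, fibroblasts or hepatocytes reached that level, and the summed signal of each of these lists stayed at or under 5.09 on every array.

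AKR1C1, AKR1C2, AKR1C3 and AKR1B10 were higher in resistant cells, AKR7A3 was lower, and AKR7A2 and AKR1C4 did not pass the test. At probe sets of a single member, 12 of 15 averaged a scaled signal of 1 or more across all arrays and were tested with limma, with Benjamini-Hochberg adjustment over all 26833 probe sets past that filter. In resistant cells 7 of the 12 were higher and 2 lower at an adjusted p under 0.05, where 9.52% of all tested probe sets were higher and 19.5% lower. The change was at least 3-fold in 5 of the 7, whereas 1.56% of all tested probe sets passed as higher by at least 3-fold, and neither of the lower ones fell that far, as 1.90% of all tested probe sets did. Of the 12, AKR1C1 probe set 217626_at passed the filter only through the resistant arrays and the AKR1C4 probe set only through the sensitive ones. At the 10 that averaged at least 1 in each group, a restriction chosen after the values were seen, 6 were higher and 2 lower, beside 9.15% and 19.8% of all probe sets so restricted. In 4 of these 6 the change was at least 3-fold, beside 0.819%. The resistant and sensitive arrays did not overlap at 10 of the 12 probe sets, beside 42.3% of all tested ones. With the brightest probe set standing for each gene, 4 of 7 genes were higher and 1 lower, where 12.4% and 22.5% of 11835 tested genes were. The bright probe sets of AKR1C1 and AKR1C2 may share signal, so that none of these counts tells those genes apart. Bulk RNA was measured, so more expressing cells and more RNA per cell cannot be told apart.

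**Figure D1:**
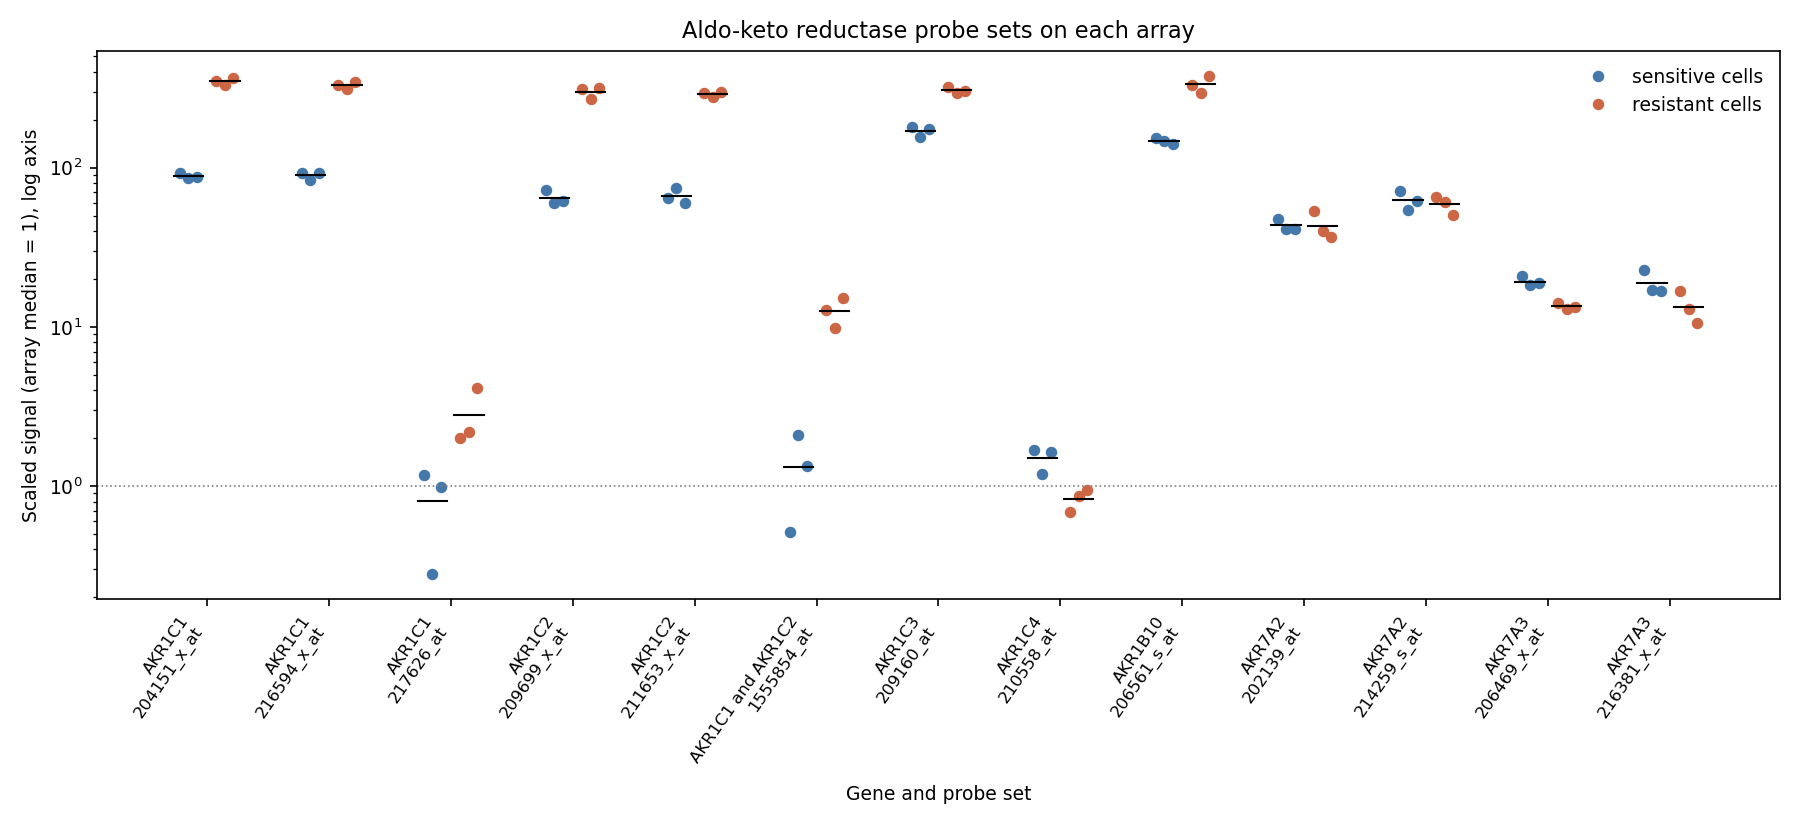
Scaled signal of each tested aldo-keto reductase probe set on each array, on a log axis where 1 (dotted line) is the array median. Points are the 3 sensitive and 3 resistant arrays and black lines their means. At AKR1C1 probe set 204151_x_at the resistant arrays lie between 332 and 363 and the sensitive ones between 86.0 and 92.1, whereas the groups overlap at both AKR7A2 probe sets. Heights are not comparable between probe sets.

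AKR1C1 and AKR1C2 lie in a cluster with AKR1C3 and AKR1C4 on chromosome 10, and the sequences around their starts are shown because AKR1C1, AKR1C2 and AKR1C3 rose and AKR1C4 did not pass the test. Each stretch runs 5′ to 3′ from 250 bases before to 50 bases after the transcription start, from RefSeq on GRCh38.p14. They lie at chr10:4963165-4963464 (plus strand) for AKR1C1, chr10:5003808-5004107 (minus strand) for AKR1C2, chr10:5094164-5094463 (plus strand) for AKR1C3 and chr10:5196587-5196886 (plus strand) for AKR1C4. Capitals mark bases that differ from AKR1C1 or face a gap in it, and in the AKR1C1 line those that differ from AKR1C2. Bases beyond the ends of the alignment are in lower case.
AKR1C1: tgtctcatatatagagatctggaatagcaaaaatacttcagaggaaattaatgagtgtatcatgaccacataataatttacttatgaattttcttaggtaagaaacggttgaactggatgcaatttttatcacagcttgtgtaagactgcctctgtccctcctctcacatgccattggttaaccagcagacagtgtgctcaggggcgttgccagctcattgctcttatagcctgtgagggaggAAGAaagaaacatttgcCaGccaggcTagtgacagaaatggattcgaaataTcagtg
AKR1C2: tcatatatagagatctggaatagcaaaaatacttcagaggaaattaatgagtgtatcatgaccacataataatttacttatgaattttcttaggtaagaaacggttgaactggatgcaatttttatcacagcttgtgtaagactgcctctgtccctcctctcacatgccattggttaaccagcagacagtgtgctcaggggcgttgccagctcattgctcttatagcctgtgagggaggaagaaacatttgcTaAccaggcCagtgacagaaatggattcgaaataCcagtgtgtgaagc
AKR1C3: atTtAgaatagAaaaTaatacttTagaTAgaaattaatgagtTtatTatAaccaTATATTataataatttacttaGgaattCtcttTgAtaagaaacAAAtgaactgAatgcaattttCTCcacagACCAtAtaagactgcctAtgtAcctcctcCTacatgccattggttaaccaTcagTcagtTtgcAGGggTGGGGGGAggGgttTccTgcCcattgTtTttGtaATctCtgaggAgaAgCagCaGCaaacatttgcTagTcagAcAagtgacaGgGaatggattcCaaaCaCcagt
AKR1C4: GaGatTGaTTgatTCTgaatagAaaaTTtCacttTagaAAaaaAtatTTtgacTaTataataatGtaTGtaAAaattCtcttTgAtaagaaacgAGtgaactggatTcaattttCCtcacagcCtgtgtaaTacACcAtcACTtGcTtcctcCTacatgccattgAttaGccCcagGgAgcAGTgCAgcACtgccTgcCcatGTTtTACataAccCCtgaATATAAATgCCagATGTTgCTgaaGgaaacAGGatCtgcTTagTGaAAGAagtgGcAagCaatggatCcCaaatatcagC

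Over the aligned bases AKR1C2 was identical to AKR1C1 at 288 of 292 positions (98.6%), apart from 4 bases, AAGA, that the AKR1C1 window holds in addition. Identity to AKR1C1 was 79.5% for AKR1C3 (78.0% at a second AKR1C3 start in RefSeq) and 69.6% for AKR1C4. Windows of AKR7A2, AKR7A3, AKR1A1 and AKR1B1 gave 52.1% to 61.6% in the same alignment. The core of the antioxidant response element, TGACNNNGC, was searched on both strands and stood in none of the AKR1C windows, whereas 13.3% of 35116 promoter windows of that length hold it and the AKR7A2 window has 3 matches. A CCAAT box, present on either strand in 34.6% of windows, matched once on the reverse strand for AKR1C1, AKR1C2 and AKR1C3 and not for AKR1C4. The AKR1C4 window holds a TATAAA, as do 11.5% of all windows, and so does the window of the second AKR1C3 start, on the reverse strand, whereas the printed windows of AKR1C1, AKR1C2 and AKR1C3 hold none. No matches of different motifs overlapped in the AKR1C windows, and a match or its absence describes the letters of a window only.

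AKR1C1 inactivates progesterone by reducing its side-chain ketone. At probe set 204151_x_at its scaled signal was 92.1, 86.0 and 87.6 on the sensitive arrays and 351, 332 and 363 on the resistant ones. Every resistant array lay above every sensitive one, with means of 88.6 ± 3.14 and 349 ± 15.3 (SD, n = 3 each), a 3.94-fold difference. The log2 fold change was 1.98 (SE 0.10, 95% interval 1.78 to 2.18, limma adjusted p = 1.2e-12). A second probe set of AKR1C1, 216594_x_at, went from 89.8 ± 5.10 to 328 ± 16.1, with 83.9 to 92.9 on sensitive and 311 to 344 on resistant arrays (log2 fold change 1.87, SE 0.10, limma adjusted p = 2.9e-12).

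The remaining AKR1C1 probe sets were dim. At 217626_at the scaled signal was 1.17, 0.280 and 0.987 on sensitive arrays and 2.01, 2.17 and 4.15 on resistant arrays, again with no overlap. Since its mean was 0.812 in sensitive and 2.78 in resistant cells, it was tested only because of the group where it was high, and its log2 fold change of 1.94 (SE 0.48, limma adjusted p = 0.0044) is given as a description. It was 1.29 without sensitive replicate 2, and the call was lost where each probe set's own variance replaced limma's shared estimate (adjusted p = 0.17 with equal and 0.24 with unequal variances) and without the mean-variance trend (0.053). Probe sets 1555855_at and 1555856_s_at were under the filter and not tested. Both overlapped between groups, from 0.0493 to 0.467 against 0.414 to 0.633 and from 0.176 to 0.733 against 0.549 to 1.38.

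AKR1C2 reduces dihydrotestosterone to a weak androgen and binds bile acids. The scaled signal at 209699_x_at was 72.4, 60.1 and 61.7 on sensitive arrays and 312, 269 and 318 on resistant arrays. All resistant values exceeded all sensitive ones, and the means of 64.7 ± 6.65 and 299 ± 26.8 (SD, n = 3 each) differed 4.62-fold. The log2 fold change was 2.21 (SE 0.11, 95% interval 1.98 to 2.44, limma adjusted p = 1.5e-12). At 211653_x_at the signal was 64.0, 74.2 and 60.0 against 296, 278 and 298 (log2 fold change 2.14, SE 0.11, limma adjusted p = 1.7e-12). The dim probe set 244266_at was not tested and overlapped between groups, with 0.383 to 1.39 on sensitive and 0.0526 to 0.846 on resistant arrays.

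The probe set annotated to both AKR1C1 and AKR1C2, 1555854_at, was 0.514, 2.08 and 1.34 on sensitive arrays and 12.8, 9.82 and 15.1 on resistant arrays. It was near the array median in sensitive cells and well above it on every resistant array. The log2 fold change was 3.46 (SE 0.33, limma adjusted p = 5.4e-08), that is, 11.0-fold between means of log2 values, and it was 2.60 on the scale of log2 of the scaled signal plus 1. With the probe set's own variance this call was lost, at an adjusted p of 0.05 for equal and 0.14 for unequal variances. The array maker's suffix _x_at marks probes that can also bind other transcripts, so that signal may be shared between AKR1C1 and AKR1C2, and the values of these bright probe sets do not separate the genes.

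AKR1C3 makes testosterone from androstenedione and is a prostaglandin F synthase. Its only probe set, 209160_at, read 179.6, 156 and 174 on sensitive arrays and 322, 294 and 304 on resistant arrays. The groups were well apart, at 169.8 ± 12.5 and 307 ± 14.0 (SD, n = 3 each), and the difference was 1.81-fold. The log2 fold change was 0.85 (SE 0.09, 95% interval 0.66 to 1.05, limma adjusted p = 4.5e-07).

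AKR1C4, a liver enzyme of bile acid synthesis, was close to the array median at its only probe set, 210558_at. The scaled signal was 1.70, 1.19 and 1.63 on sensitive arrays and 0.684, 0.863 and 0.941 on resistant arrays. The resistant arrays lay below the sensitive ones without overlap, but the log2 fold change of -0.86 (SE 0.45, 95% interval -1.79 to 0.08) did not pass (limma adjusted p = 0.16). Without the mean-variance trend the adjusted p was 0.029.

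AKR1B10, which reduces retinaldehyde to retinol, was read by 1 probe set, 206561_s_at. The scaled signal was 153, 147 and 141 on sensitive arrays and 331, 294 and 378 on resistant arrays. The groups did not overlap, and resistant arrays were more spread, at 335 ± 41.9 against 147 ± 5.87 (SD, n = 3 each). The means differed 2.27-fold, with a log2 fold change of 1.18 (SE 0.10, 95% interval 0.97 to 1.39, limma adjusted p = 9.7e-09). With own, unequal variances in place of limma's shared estimate the call was lost for AKR1B10 (adjusted p = 0.085), for AKR1C3 (0.056) and for 211653_x_at of AKR1C2 (0.052).

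AKR7A2 reduces succinic semialdehyde, a product of GABA breakdown, and the aflatoxin dialdehyde. At 202139_at the scaled signal was 47.6, 41.2 and 41.4 on sensitive arrays and 53.2, 40.1 and 36.5 on resistant arrays, and the groups overlapped. The log2 fold change was -0.02 (SE 0.15, 95% interval -0.33 to 0.29, limma adjusted p = 0.94). At 214259_s_at the groups overlapped too, at 71.3, 54.3 and 62.0 against 65.2, 60.8 and 50.2, with a log2 fold change of -0.09 (SE 0.14, 95% interval -0.38 to 0.20, limma adjusted p = 0.67). The sign of both values turned with quantile normalization (0.17 and 0.10).

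AKR7A3 is the close relative of AKR7A2 that also acts on the aflatoxin dialdehyde, and it was the member gene that fell. At 206469_x_at its scaled signal was 20.7, 18.3 and 18.7 on sensitive arrays and 14.0, 12.9 and 13.3 on resistant arrays, with no overlap. The log2 fold change was -0.52 (SE 0.16, 95% interval -0.84 to -0.19, limma adjusted p = 0.015). At 216381_x_at the signal was 22.70, 17.13 and 16.79 against 16.78, 12.97 and 10.50, so that the groups were separated by their last digit only (log2 fold change -0.50, SE 0.19, limma adjusted p = 0.044). The call at 206469_x_at was lost without sensitive replicate 1 (adjusted p = 0.092) or 2 (0.055) and with own, unequal variances (0.075). By its adjusted p the call at 216381_x_at was lost under 9 of 18 alternatives. Neither AKR7A3 probe set reached the 3-fold threshold. As with AKR1C1 and AKR1C2, the suffix _x_at of both probe sets marks probes that can bind related transcripts.

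**Figure D2:**
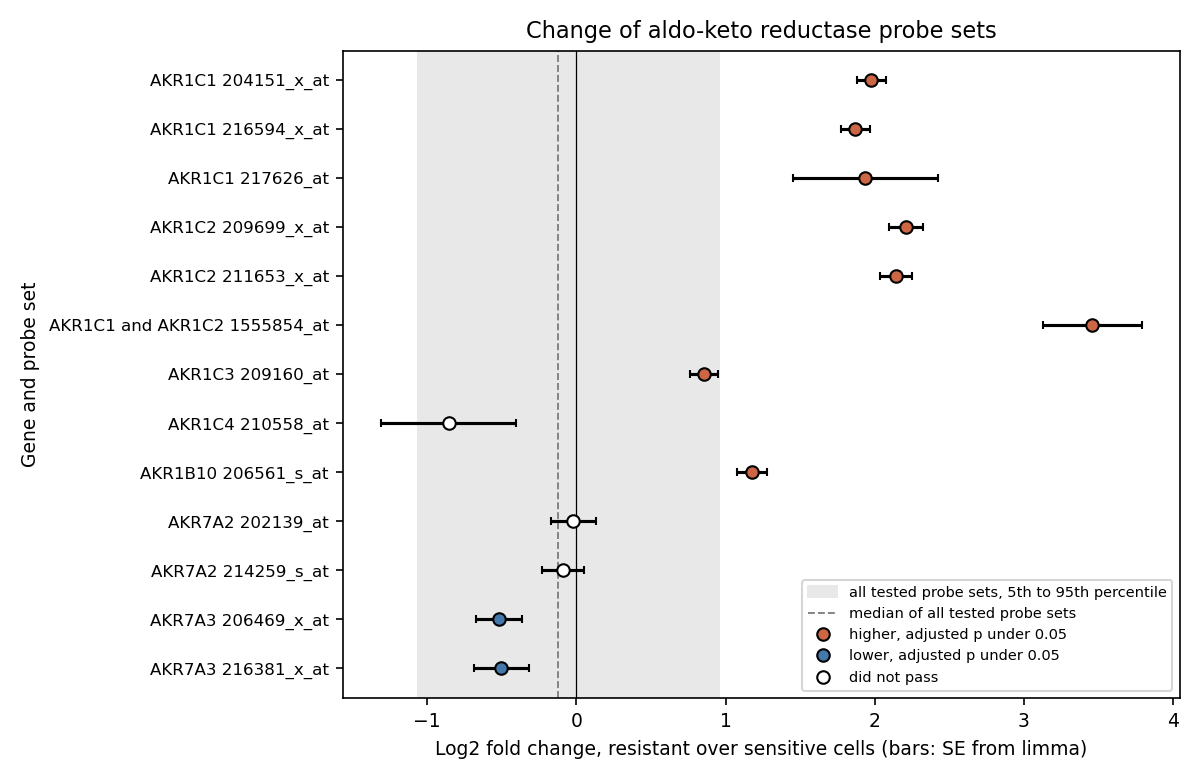
Log2 fold change of each tested probe set, resistant over sensitive cells, with bars of 1 SE from limma (3 arrays in each group). The grey band is the 5th to 95th percentile of all 26833 tested probe sets, from -1.06 to 0.96, and the dashed line their median of -0.12. The AKR1C1 and AKR1C2 probe sets and AKR1B10 lie to the right of the band, AKR1C3 at 0.85 lies inside it, and open points did not pass.

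Changes of the genes were compared in 4 pairs, each over the difference of log2 scaled signals within an array, so that the array's scaling drops out. At a probe set that may share signal with AKR1C2, AKR1C1 rose by 1.12 more than AKR1C3 on the log2 scale. At that same probe set AKR1C1 rose by 0.80 more than AKR1B10. AKR7A2 minus AKR7A3 gave 0.43. AKR1C1 minus AKR1C2 gave -0.23, between _x_at probe sets that may share signal, so that the genes are not ranked by it. The resistant and sensitive arrays did not overlap in any of the 4 differences, whose SD within a group was 0.043 to 0.18. With 3 arrays against 3 the exact two-sided permutation test cannot give a p under 0.1, and it gave 0.1 for every pair, also after adjustment over the 4. With the mean of all tested probe sets of a gene in place of the brightest, the arrays overlapped for AKR1C1 minus AKR1C2 (-0.25, exact permutation p = 0.4).

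The genes on either side were examined for whether the change extended along the chromosome, with 6 tested genes on each side of a locus and the order taken from RefSeq. Around the AKR1C cluster 1 of 12 neighbours was higher and 2 were lower, where 12.4% of all tested genes were higher and 22.5% lower, and the median log2 fold change was -0.18, beside -0.10 for all tested genes. The nearest tested genes did not pass, with -0.10 for the pseudogene AKR1C6P on one side and 0.22 for UCN3, a urocortin, on the other. Both were dim, with means in sensitive and resistant cells of 1.06 and 0.992 for AKR1C6P (SE 0.55) and 1.58 and 1.86 for UCN3 (SE 0.36). So near the filter their values do not settle whether the change extended to them. The neighbour that rose was TUBAL3, a tubulin-like gene, from a dim 0.520, under the filter, to 2.31 (log2 fold change 2.17, SE 0.51, limma adjusted p = 0.00086), and it left the test at a mean scaled signal of at least 5. ASB13 (log2 fold change -0.43, limma adjusted p = 0.043) and GDI2 (-0.32), a regulator of Rab GTPases, fell. In the fit over all probe sets ASB13 did not pass (limma adjusted p = 0.057).

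AKR1B10 on chromosome 7 had 3 higher and 3 lower neighbours of 12, beside the 12.4% and 22.5% of all tested genes, and their median log2 fold change was 0.02 against -0.10 for all. CALD1, which encodes the actin-binding protein caldesmon, rose from 0.909, under the filter, to 28.3 (log2 fold change 5.22). PODXL, a sialomucin, rose by 1.25 and SLC35B4, a nucleotide sugar transporter, by 0.43 (limma adjusted p = 0.0499). In the fit over all probe sets SLC35B4 did not pass at its brightest one (limma adjusted p = 0.065). Another of its probe sets did not pass (log2 fold change 0.50, limma adjusted p = 0.21), and a further one was higher (0.83, limma adjusted p = 0.0063). BPGM, the nearest tested gene on one side, gave 0.14 and did not pass. MKLN1 (-0.92), CHCHD3 (-0.71) and CYREN (-0.45) fell.

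AKR7A2 and AKR7A3 lie together on chromosome 1, and 1 of their 12 neighbours was higher and 5 were lower (12.4% and 22.5% of all tested genes), with a median log2 fold change of -0.36 (-0.10 for all). LOC100506730, which lies between AKR7A3 and AKR7A2 and was not counted among the 12, gave 0.31 and did not pass (limma adjusted p = 0.264). Outside the pair, on the side of AKR7A3, the genes MRTO4 (-0.54), EMC1 (-0.46) and UBR4 (-0.75) fell, and so did MICOS10 (-0.31) and TMCO4 (-0.72) on the other side. In the fit over all probe sets EMC1 passed only at its brightest one (limma adjusted p = 0.045). Its other tested probe sets, from -0.31 to -0.06, did not pass. ALDH4A1, a mitochondrial aldehyde dehydrogenase of proline breakdown, rose by 0.90.

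**Figure D3:**
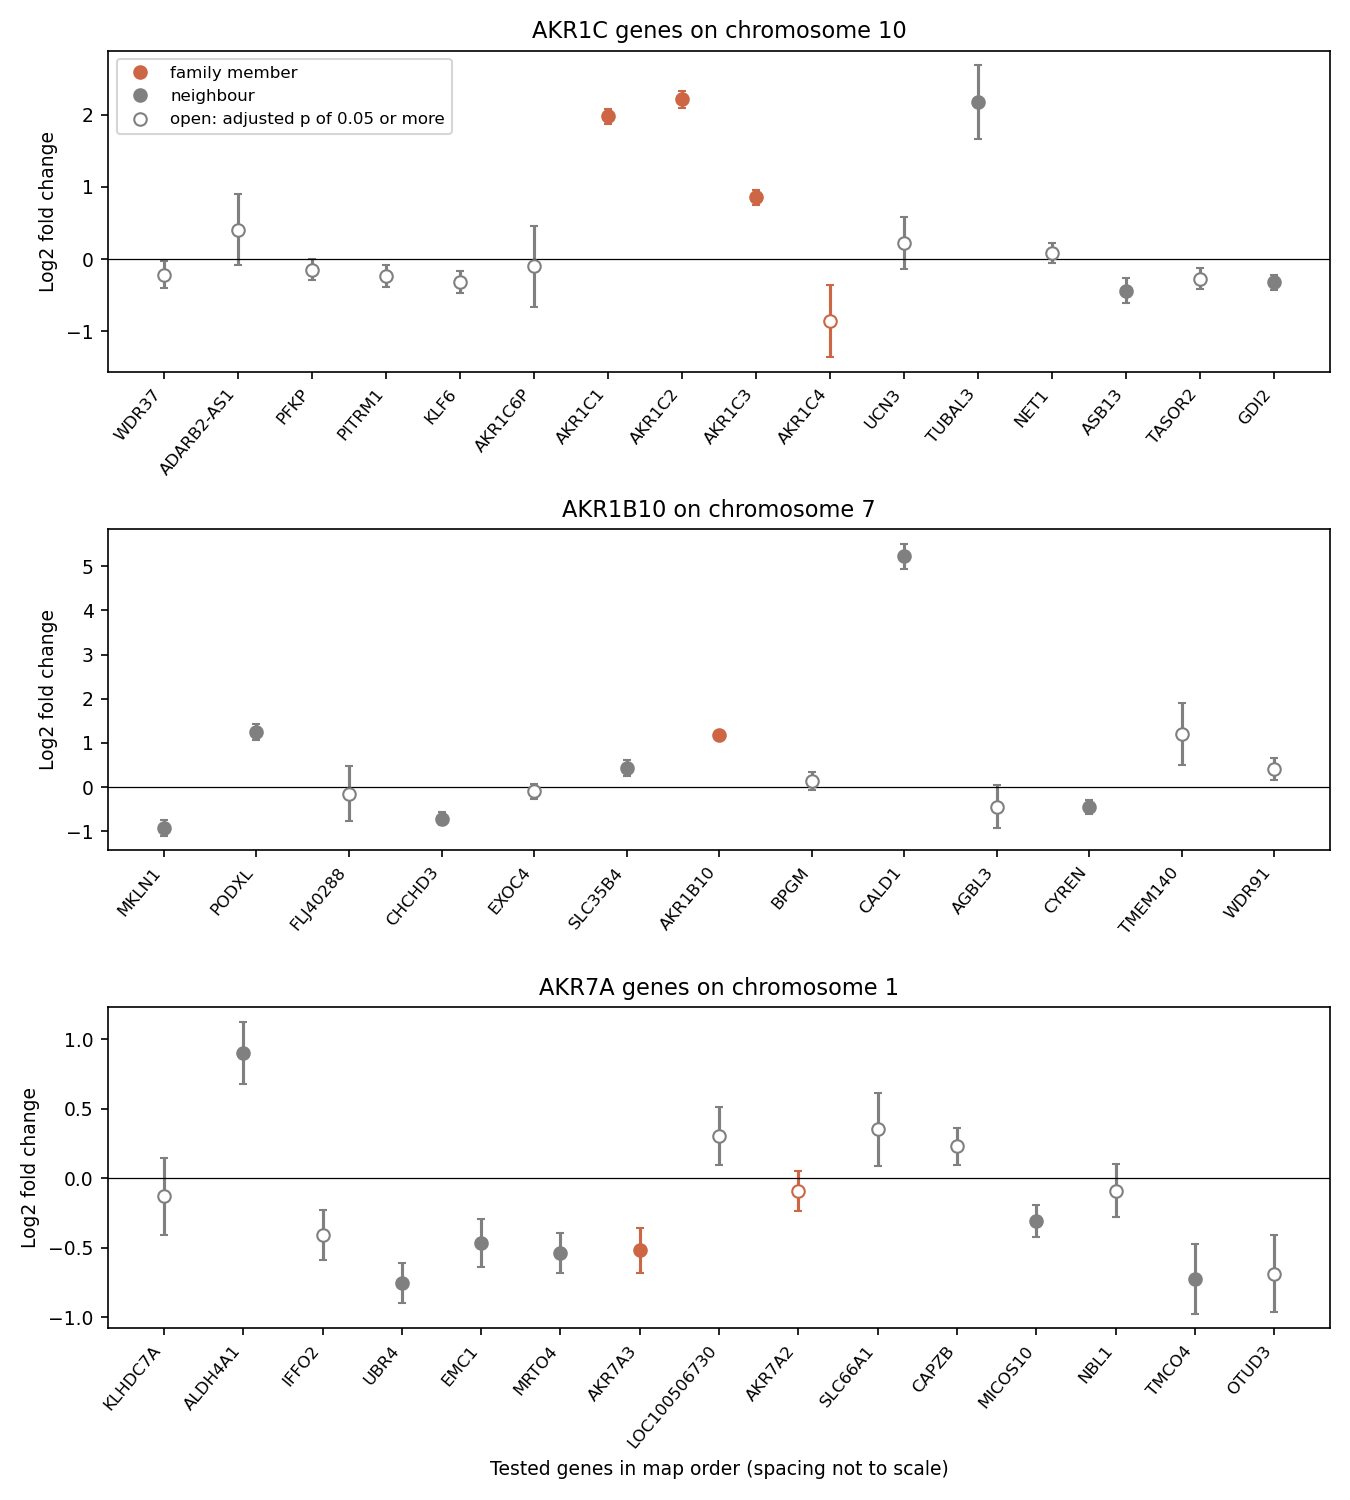
Log2 fold change of member genes (red) and of 6 tested genes on each side (grey) in map order, for the loci on chromosomes 10, 7 and 1, with bars of 1 SE from limma. The chromosome 1 panel also shows, in grey, LOC100506730, which lies between AKR7A3 and AKR7A2. Filled points passed an adjusted p under 0.05. AKR1C1, AKR1C2 and AKR1C3, at 1.98, 2.21 and 0.85, lie next to AKR1C6P and, beyond AKR1C4, to UCN3, neither of which passed. Signals of AKR1C6P and UCN3 were near the filter.

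Genes of related function were read from lists, each gene at its brightest probe set, beside the 12.4% higher and 22.5% lower of all tested genes. Of other members of the AKR superfamily 5 of 7 had a probe set and 2 were bright enough to test, both potassium channel beta subunits. KCNAB2 was higher (log2 fold change 0.83, SE 0.23, limma adjusted p = 0.0039), and KCNAB1 gave 0.43 (limma adjusted p = 0.55). Of 14 tested steroid enzymes 1 was higher and none lower, counts that ran from 0 to 5 and from 0 to 4 over the alternatives. It was UGT2B15, an androgen glucuronosyltransferase, at a dim 0.700, under the filter, in sensitive and 2.01 in resistant cells (log2 fold change 1.88, limma adjusted p = 0.011).

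Other carbonyl, polyol and retinaldehyde reductases, whose substrates overlap those of the AKRs, had 1 higher and 4 lower genes of 15 (6.67% and 26.7%), with a median log2 fold change of -0.24. DHRS7 was higher (0.46). The retinol dehydrogenases RDH13 (-0.74), RDH10 (-0.56) and RDH11 (-0.38) and the carbonyl reductase CBR1 (-0.47) were lower. Prostaglandin enzymes, the pathway AKR1C3 belongs to, also had 1 higher and 4 lower genes, of 12. HPGD, which inactivates prostaglandins, was higher (0.52), and PTGS2, the inducible cyclooxygenase, was lower from 3.06 to 1.06 (log2 fold change -1.54, SE 0.35, limma adjusted p = 0.00062). The prostaglandin exporter ABCC4 (-0.89) and the prostaglandin E synthases PTGES2 (-0.50) and PTGES3 (-0.22) were lower.

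NADPH, the reductant of AKRs, is supplied by a group of dehydrogenases and kinases of which 4 were higher and 4 lower out of 13 tested, with a median log2 fold change of 0.05. NADK2 (0.98), IDH1 (0.48), NNT (0.45) and PGD of the pentose phosphate pathway (0.44) were higher. IDH2 (-0.62), malic enzyme ME1 (-0.61), the folate enzyme MTHFD1 (-0.61) and NADK (-0.39) were lower.

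Of 23 targets and regulators of NRF2, members of the AKR family left out, 6 were higher (26.1%) and 1 was lower (4.35%), with a median log2 fold change of 0.01. EPHX1, microsomal epoxide hydrolase, had the smallest adjusted p (log2 fold change 0.78, SE 0.13, limma adjusted p = 1.3e-05), followed by GSR, glutathione reductase (0.68). PIR (0.64), OSGIN1 (0.87), GCLC, the catalytic subunit of glutamate-cysteine ligase (0.52), and the cystine transporter SLC7A11 (0.45) were higher as well. KEAP1, the inhibitor of NRF2, was lower (-0.54, limma adjusted p = 0.012). NQO1, a widely used NRF2 target, had a scaled signal of 222 ± 26.5 in sensitive cells and of 225 ± 37.0 (SD, n = 3 each) in resistant ones (limma adjusted p = 0.95). NFE2L2, which encodes NRF2 itself, gave -0.29 (limma adjusted p = 0.078), TXNRD1 gave -0.12 and GCLM -0.05, neither of which passed.

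**Figure D4:**
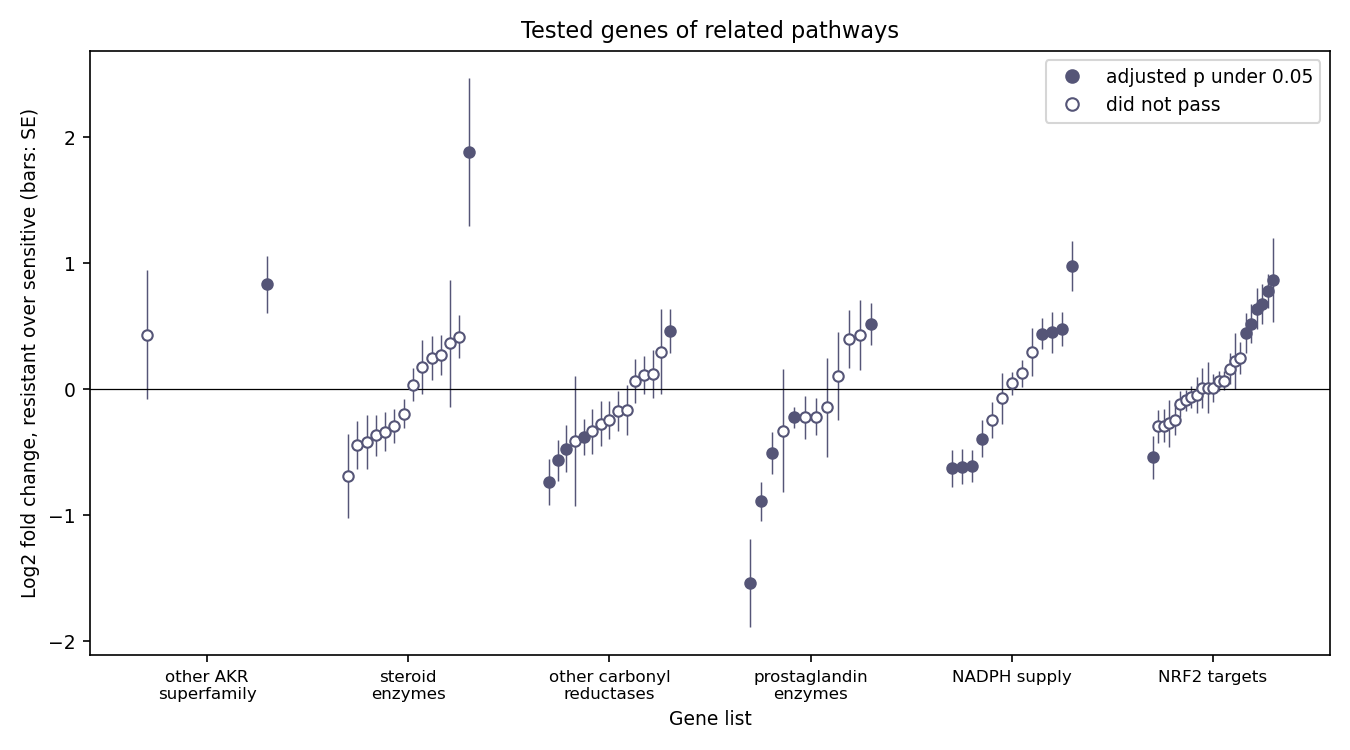
Log2 fold change of each tested gene of 6 lists, resistant over sensitive cells, ordered within a list, with bars of 1 SE from limma (3 arrays in each group). Filled points passed an adjusted p under 0.05. The NRF2 list has 6 filled points above 0 and 1 below, and the prostaglandin list 1 above and 4 below, the lowest being PTGS2 at -1.54.

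The genes whose pattern was most like that of AKR1C1 were ranked by the root mean square difference of log2 scaled signals over the 6 arrays, each gene first centred on its mean in sensitive cells. Over 11828 other genes the smallest differences were those of ZFYVE16 (0.0755), RNF24 (0.0823), CLN8 (0.0979), TMEM167A (0.107) and S100A4 (0.114), a calcium-binding protein. Their log2 fold changes ran from 1.84 to 2.04. The measure follows the size of the change on 6 arrays of 2 groups, so that genes with a like fold rank first.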

How the data were processed

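The values deposited by the authors are MAS5 signals, that is, intensity on a linear scale per probe set, in 1 column for each of 6 arrays. Which version of MAS5 made them is not named in the sources used here. The study's later GeneSpring steps (scaling to array medians and to the sensitive samples, a filter on low signals, a t-test whose treatment of variances is not stated) were applied later. Groups follow the submitters' labels.

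Of 54675 probe sets 62 controls were left out. The platform annotation gave 41091 probe sets 1 gene, 1801 several and 11721 none, and symbols were updated by Entrez identifier to RefSeq of GRCh38.p14 (41037 matched). The annotation used names no probe set for AKR1A1 and AKR1B1, so planned comparisons with them were not run. Signals were divided by the array median, values under 0.01 set to 0.01, and log2 values of probe sets with a mean of at least 1 fitted in limma 3.58.1 under R 4.3.3 (lmFit, then eBayes allowing a trend of variance with mean). The brightest probe set stood for a gene. A call needed an adjusted p under 0.05, adjusted over all 26833 probe sets or 11835 genes. The procedure was tested on simulated data. Figures were drawn with matplotlib 3.10.9 and windows aligned with biopython 1.88.

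The members and lists were chosen with earlier results of these data known. Named are all members, in each list up to 6 genes of lowest adjusted p and every called gene of a count of 5 or fewer, all called neighbours, and the 5 genes most like AKR1C1. OSGIN1, NFE2L2, NQO1, TXNRD1, GCLM and CDH17 fall outside this rule, as do the neighbours named that did not pass, and were chosen after their values were seen. Arrays that share a replicate number deviated together little (correlations 0.0752, 0.0229 and 0.0480). No values for arrays of different numbers stand beside these, so whether the numbers pair the arrays is not settled. Scanner files, detection calls and batches were not used here. The number of arrays limits the precision. Alternatives covered scaling, low signals, the filter, the test, the block, left-out arrays, the probe set taken for a gene and the fold threshold.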

Additional observations from a re-analysis of the deposited data

How the results depend on the processing

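The rises of AKR1C1 at 204151_x_at (log2 fold change 1.95 to 2.11) and 216594_x_at (1.82 to 1.98) and of AKR1C2 at 209699_x_at (2.16 to 2.32) passed under all 18 alternatives. AKR1B10 (1.09 to 1.28), AKR1C3 (0.79 to 0.95) and 211653_x_at of AKR1C2 (2.07 to 2.24) failed under the t-test with unequal variances. AKR1B10 and AKR1C3 also fell short of the 3-fold threshold. AKR1C4 ran from -1.02 to -0.45. AKR7A2 changed sign at 202139_at with quantile normalization (0.17), without further scaling (0.024) and with the median of probe sets past the filter (0.080), and 214259_s_at with quantile normalization (0.10) and that median (0.0098). With 1 array left out, they ran from -0.18 to 0.093 and from -0.19 to 0.019. Quantile normalization moved the median of all tested genes from -0.10 to 0.02 and the split of higher and lower genes from 12.4% and 22.5% to 21.1% and 18.8%. Why counts moved was not tested.

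Counts of called genes in small lists moved most. In what follows a count is given where it differed from that of the report by more than 1.5 times. Quantile normalization gave 1 member probe set lower, 5 steroid enzymes higher, 2 carbonyl reductases higher and 2 lower, 2 AKR1C neighbours higher and 1 lower, and 2 AKR7A neighbours higher. Without further scaling 3 steroid enzymes were higher and 2 lower, and 2 AKR7A neighbours were higher. With the median of probe sets past the filter, 4 steroid enzymes and 2 AKR7A neighbours were higher. With log2 of the scaled signal plus 1, 2 steroid enzymes were higher. Without a filter 1 member probe set was lower, 2 steroid enzymes were higher and 1 lower, 0 carbonyl reductases were higher, and 0 AKR1C and 2 AKR7A neighbours were lower. At a mean of at least 5, 1 steroid enzyme was lower and no other AKR superfamily gene (0), AKR1C neighbour (0) or AKR7A neighbour (0) was higher. With a gene's probe sets averaged in place of the brightest, 0 other AKR genes and 0 prostaglandin enzymes were higher, and 3 steroid enzymes and 2 carbonyl reductases were lower. A change of at least 3-fold as well left 0 member probe sets lower.

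Without the mean-variance trend 2 member genes were lower, 0 steroid enzymes were higher and 1 lower, 0 carbonyl reductases were higher and 1 lower, 2 prostaglandin enzymes were lower, 2 NADPH genes were higher, and 0 NRF2 genes, 0 AKR1C and 3 AKR7A neighbours were lower. With a t-test of equal variances 1 member probe set was lower and the shared probe set was not called (0). It gave 1 NADPH gene higher and 1 lower, 3 NRF2 genes higher and 0 lower, 1 AKR1B10 neighbour higher and 1 lower, 1 AKR1C and 1 AKR7A neighbour lower, and 0 higher among AKR7A neighbours, other AKR genes, steroid enzymes and carbonyl reductases, with 0 carbonyl reductases lower. With unequal variances 3 member probe sets were higher and 0 lower, 0 member genes were lower, 1 prostaglandin enzyme was lower, and all other lists, the neighbours and the shared probe set gave 0, where 0.302% of all tested probe sets were higher and 0.507% lower.

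The replicate block, with numbers not known to pair the arrays, gave 2 steroid enzymes higher and 4 lower and 4 NRF2 genes lower. No other count moved by over 1.5 times. With the block 15% of all tested genes were higher and 27.6% lower, beside 12.4% and 22.5% in the report. With 1 array left out, member probe sets lower ran from 0 (without sensitive replicate 1 or 2) to 2, and were 1 without resistant replicate 2 or 3, and member genes lower from 0 (without sensitive replicate 1) to 1. Steroid enzymes ran from 0 to 2 higher and 0 to 4 lower, carbonyl reductases from 0 to 2 and 2 to 7, prostaglandin enzymes from 0 to 2 and 2 to 5, NRF2 genes lower from 0 to 4, AKR1C neighbours lower from 0 to 3 and AKR7A neighbours lower from 2 to 6. The highest counts of lower steroid enzymes, carbonyl reductases and NRF2 genes came without resistant replicate 1.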
